A study of Homo sapiens with 18 samples.

Results

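The genes described here are 34 cytokines, chemokines and inhibitors of NF-kB signalling, taken from a fixed list of symbols and matched to the Ensembl identifiers of the deposited tables, where 34 of 34 were found among 60603 genes. They were measured by poly(A) RNA-seq in MDA-MB-231, a mesenchymal-like line of basal breast cancer cells, in 18 libraries of 9 groups with 2 libraries each. In the inducible system, cells carried a doxycycline-inducible lentiviral vector for GFP (GFP cells) or for ZMYND8 (ZMYND8 cells), and all of them received 250 ng/mL doxycycline. Each line was sampled without doxorubicin and after 6 h or 48 h with 0.6 µM doxorubicin, a drug that damages DNA. The transient system had control cells, control cells kept in the same dose of drug for 48 h, and a group whose labels give transient FLAG-ZMYND8 overexpression before that treatment. ZMYND8 is a chromatin reader and corepressor. There was 1 stably selected line for each construct, so that what ZMYND8 did and how the lines differed otherwise cannot be told apart.

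NF-kB transcription factors are held in the cytoplasm by IkB proteins until a signal such as interleukin 1, TNF or DNA damage leads to degradation of the inhibitor. In the nucleus they bind kappa B sites and switch on cytokines and chemokines together with their own inhibitors, among them NFKBIA, which encodes IkB alpha, and TNFAIP3, which encodes the ubiquitin-editing enzyme A20. AP-1 is another factor that acts at many of the same promoters. Cells of the MDA-MB-231 line are known for strong secretion of IL-6, IL-8 and colony stimulating factors, and damaged or senescent cells often release a similar set of factors.

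The promoters of 5 members are shown because these genes rose with 48 h of doxorubicin in both inducible lines and hold a kappa B or AP-1 motif close to a RefSeq start. RefSeq windows (GRCh38.p14) that cover the 250 bases before a gene start were found for 24 of the 34 members. They were searched on both strands for GGNNNTTCC (kappa B) and TGANTCA (AP-1), and matches are in capitals. Each sequence runs 5′ to 3′ on the strand of its gene and ends before the next exon of that gene on its strand in GENCODE 44, or at the RefSeq start where no exon comes first.
CXCL11 (chr4:76036071-76036320, minus strand): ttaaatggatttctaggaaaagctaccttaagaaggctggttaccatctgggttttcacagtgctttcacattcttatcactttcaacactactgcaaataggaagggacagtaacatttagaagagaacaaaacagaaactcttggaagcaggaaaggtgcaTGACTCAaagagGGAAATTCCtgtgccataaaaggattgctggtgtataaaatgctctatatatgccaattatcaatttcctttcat
TNFAIP3 (chr6:137867009-137867213, plus strand): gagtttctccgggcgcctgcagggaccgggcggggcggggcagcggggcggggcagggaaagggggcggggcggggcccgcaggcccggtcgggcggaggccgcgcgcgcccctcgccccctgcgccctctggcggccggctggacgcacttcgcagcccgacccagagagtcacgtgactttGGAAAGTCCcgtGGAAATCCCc
TNFSF15 (chr9:114792531-114792780, minus strand): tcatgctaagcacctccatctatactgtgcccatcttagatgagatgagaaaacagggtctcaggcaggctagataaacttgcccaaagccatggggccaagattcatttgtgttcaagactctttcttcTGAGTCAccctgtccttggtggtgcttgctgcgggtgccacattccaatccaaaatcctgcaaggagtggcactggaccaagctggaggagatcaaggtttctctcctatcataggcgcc
IL6 (chr7:22726950-22727146, plus strand): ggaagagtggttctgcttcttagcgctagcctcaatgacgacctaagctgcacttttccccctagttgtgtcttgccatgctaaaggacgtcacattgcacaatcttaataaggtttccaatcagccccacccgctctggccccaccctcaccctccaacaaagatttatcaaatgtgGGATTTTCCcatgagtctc
IL32 (chr16:3065153-3065296, plus strand): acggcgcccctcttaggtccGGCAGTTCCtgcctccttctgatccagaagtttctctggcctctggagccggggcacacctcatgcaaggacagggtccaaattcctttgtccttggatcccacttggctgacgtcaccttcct

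In CXCL11 the AP-1 motif began 87 bases and the kappa B motif 75 bases before the start. TNFAIP3 held 2 kappa B motifs, at 67 and 55 bases, and IL6 held 1 at 72 bases before the start. IL32 held 3, of which only the motif at 230 bases lies outside the annotated exons and is printed. The windows of CXCL11, TNFSF15 and IL6 lie within longer GENCODE 44 transcripts of these genes, so that positions before the start refer to the RefSeq start. As annotated for the counts, TNFSF15 begins at 114806039 and CXCL11 at 76041415, upstream of the windows shown. Which start the counted RNA came from was not tested. The kappa B motif was present in 16 of 29 windows of members (55.2%) and in 17.1% of all 35116 windows of this length. The AP-1 motif was present in 6 of 29 windows of members (20.7%) and in 6.57% of all windows. Of the 7 members with a window that rose at 48 h in both lines, 4 held a kappa B and 2 an AP-1 motif, while CCL26 and IL24, which rose more than TNFAIP3, IL6 and IL32 on average over the lines, held neither. TNFSF10, which fell in both lines, held neither. These matches describe sequence letters only, and binding was not measured.

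The inducible libraries held 18300628 to 23724398 counts and the transient libraries 5729294 to 24713822. ZMYND8 itself was at 209 and 208 CPM (counts scaled to a common library size with TMM factors) in untreated GFP cells and at 922 and 927 in untreated ZMYND8 cells. Its transient levels were 219 and 199 CPM in control, 182 and 123 with drug alone and only 159.8 and 125 where the label is ZMYND8 plus doxorubicin, which goes against that label. The second library with doxorubicin and the second one labelled ZMYND8 plus doxorubicin gave a chi-square to degrees-of-freedom ratio of 1.39 when compared, against 9.71 to 55.6 in the other 14 transient pairs, so transient results are given with and without them. Opposite-strand genes within expressed genes had a median of 8.32% of the length-scaled level of the sense gene in the inducible and 152% in the transient counts, so that transient values of IL24, IL7, IL6 and 5 further members with opposite-strand exons may include reads of the partner. The VIM, CD44, CAV1, AXL and MSN messages that mark this line summed to 3819 to 8323 CPM in the inducible libraries, and all 5 were called lower at 48 h in both lines (median log2 -1.06 in GFP and -0.79 in ZMYND8 cells). ESR1 and PGR stayed under 1 CPM. ERBB2 and EPCAM, and CDH1 in ZMYND8 cells and in all libraries at 48 h of the inducible system, were above 1 CPM although they were listed as low in this line. Of the leukocyte markers, NKG7 stayed under 0.2 CPM in all libraries, CD3E was at or near 0 in untreated cells, and CD14 had the highest level. LYZ and PTPRC were called higher at 48 h in GFP cells, and CD14, ITGAM, LYZ and PTPRC in ZMYND8 cells. PTPRC went from 0.253 and 0.738 CPM without drug to 3.37 and 3.95 at 48 h in GFP cells and from 0.0558 and 0.131 to 2.03 and 2.04 in ZMYND8 cells. The endothelial marker VWF and the fibroblast marker DCN were also called higher at 48 h in both lines, with DCN under 1 CPM. The fibroblast marker PDGFRA was called higher in GFP cells only. Others went the other way, with the endothelial marker PECAM1 called lower in GFP cells and the fibroblast marker PDGFRB lower in ZMYND8 cells. The part of such cells in the 48 h results was not tested. In the inducible system, total-count scaling in place of TMM factors puts the all-gene median at 48 h at a log2 value of 0.27 in GFP and 0.25 in ZMYND8 cells.

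A gene was called at an edgeR adjusted p of at most 0.05, without a limit on the fold change. This test was passed by many genes in the inducible system, and members are therefore read against the share of all genes called. The low-count filter was passed by 27 members in the inducible and by 23 in the transient system. Untested in both were CCL20, CXCL5, CXCL6, IL33, TNF and TSLP, whose highest counts were 8, 5, 1, 11, 0 and 6. TNF had 0 counts in all 18 libraries, which allows up to 0.164 CPM in the inducible and 0.524 CPM in the transient libraries. IL33 was seen with 11 and 6 counts in GFP cells at 48 h and with 0 in the other inducible libraries. IL7 (highest inducible count 10) was untested in the inducible system, and CCL2, CCL26, CCL5, CSF3 and CXCL3 in the transient one, with highest counts of 2, 50, 3, 16 and 25. CXCL1, CXCL2 and CXCL3 are close paralogs on chromosome 4 whose shared reads may be lost or split, which makes their levels less certain.

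In GFP cells doxorubicin lowered most of the tested members, while the share that rose by 48 h was near that of all genes. In bulk RNA, fewer expressing cells and less RNA per cell cannot be told apart. At 6 h, 15 of 27 members were lower, where 25.8% of all genes were, and 4 were higher, where 22.1% of all genes were. At 48 h, 15 were lower, beside 31.8% of all genes, and 10 were higher, beside 32.4%. The median log2 fold change over the tested members was -0.50 at 6 h and -0.68 at 48 h, with -0.05 and 0.03 over all genes tested. Lower at 48 h were 4 ELR chemokines, 3 members of the interleukin 1 family, 3 colony stimulating factors, NFKBIA, LIF, CCL2, IL15 and TNFSF10, while CCL5, CXCL11, IL24, CCL26, CXCL16 and IL11 had the largest rises. Without the first untreated library the 6 h calls of CSF2 and CXCL11 as higher were lost. The call of CSF2 was also lost without the first 6 h library and with DESeq2. The 6 h calls of CXCL2, IL1A and TNFSF15 as lower were lost in some fits that left out a library.

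In ZMYND8 cells more members rose than fell at 48 h. At 6 h, 7 of 27 members were higher and 6 lower, beside 21.8% and 19.0% of all genes. At 48 h, 15 were higher, beside 31.6% of all genes, and 3 were lower (CSF1, LIF and TNFSF10), beside 30.8%. Without the first untreated library the 6 h calls of CCL26, CXCL16 and CXCL8 as higher were lost. The call of CCL26 was also lost without either 6 h library, with total-count scaling, without the low-count filter and with DESeq2. That of CXCL16 was also lost without the first 6 h library and with DESeq2. The median log2 fold change of the members was 0.04 at 6 h and 1.10 at 48 h, with -0.01 and 0.05 over all genes tested. The plot of 48 h effects by line shows the members side by side.

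**Figure D1:**
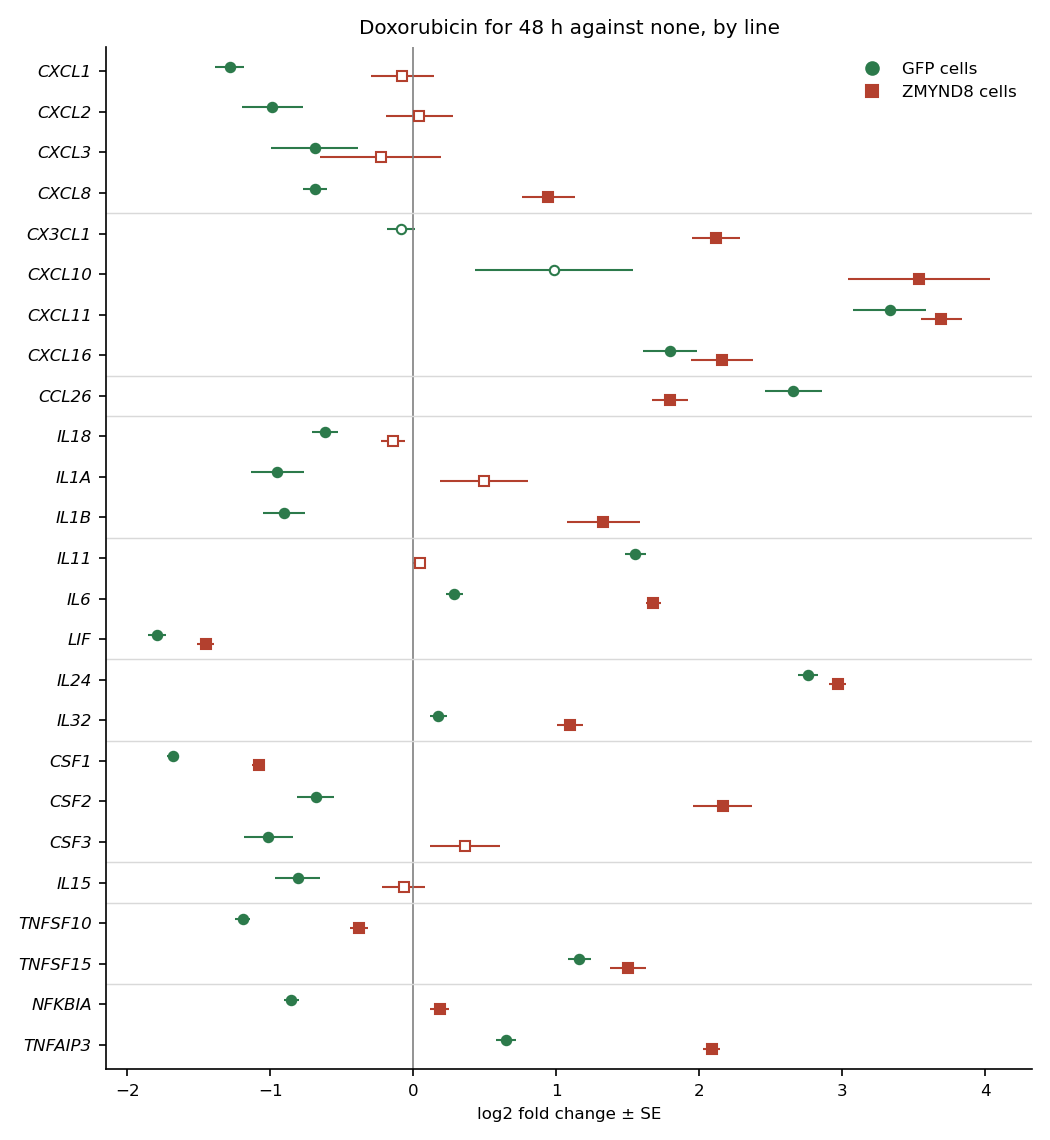
Log2 fold change (x axis, ± SE) of 25 tested members after 48 h of doxorubicin against none, in GFP cells (circles) and ZMYND8 cells (squares), grouped by role. Filled symbols passed the test. CCL2 and CCL5, with 3 or fewer counts in each library of some groups, are left out. The chemokines CXCL1, CXCL2, CXCL3 and CXCL8, the interleukin 1 family, CSF2 and NFKBIA lie left of zero in GFP cells, and CXCL11 and IL24 lie far to the right in both lines.

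The interaction tests whether doxorubicin acted differently in the lines. At 48 h, 19 of 27 members had a higher (more positive) effect in ZMYND8 cells, where 12.7% of all genes did, and IL11 and CCL26 had a lower one, where 15.8% of all genes did. At 6 h, 10 members had a higher effect, beside 7.86% of all genes, and IL24 had a lower one, beside 5.52%. The log2 difference was above 0 in 25 of 27 members at 48 h, with a median of 0.92 against -0.01 over all genes tested.

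Before doxorubicin, the ZMYND8 cells had lower levels of most members and higher levels of a few. Without drug 16 of 27 members were lower and 6 higher, beside 29.5% and 28.7% of all genes. After 6 h 16 were lower and 9 higher, beside 26.6% and 28.9%, and after 48 h 15 were lower and 11 higher, beside 31.6% and 28.4%. The median log2 difference was -1.50, -1.01 and -0.61 in that order of time, with medians over all genes of 0.00, 0.00 and -0.04. These comparisons share libraries with those of doxorubicin within each line. CD14 and PDGFRB, listed as leukocyte and fibroblast markers, were also lower in ZMYND8 cells, at 19.8 and 18.3 against 2.35 and 2.01 CPM and 15.1 and 16.9 against 4.13 and 3.50 CPM without drug. PTPRC and the endothelial markers PECAM1 and VWF were called lower as well, with PECAM1 at 5.27 and 5.59 against 1.06 and 1.49 CPM and VWF at 0.811 and 0.369 against 0.223 and 0.0438. CD3E, NKG7, DCN and LUM were at or near 0 in untreated cells of both lines, and the part of such cells in the result was not tested.

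**Figure D2:**
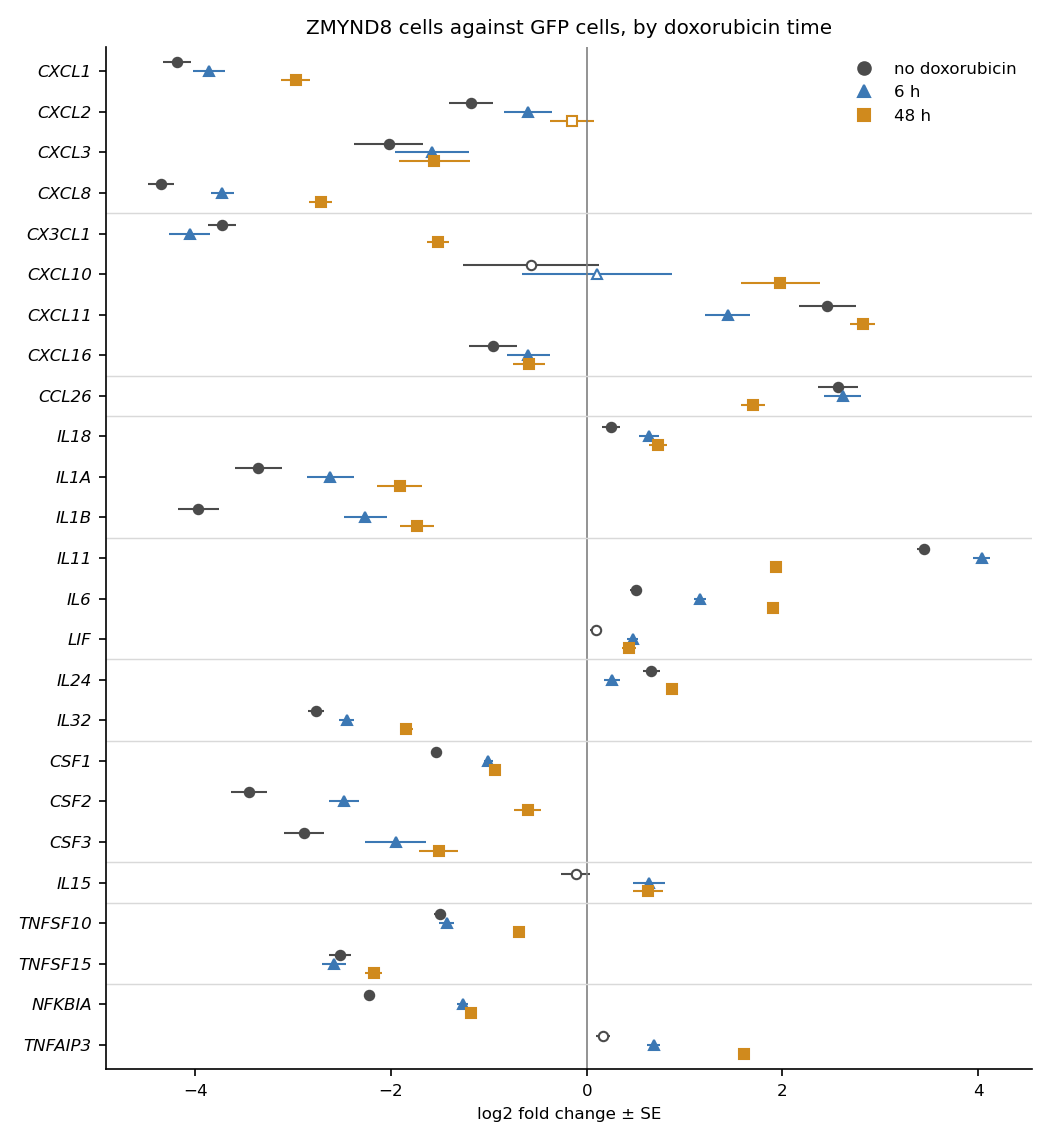
Log2 fold change (x axis, ± SE) of ZMYND8 cells against GFP cells for 25 tested members without doxorubicin (circles), after 6 h (triangles) and after 48 h (squares). Filled symbols passed the test. CXCL1, CXCL8, IL1A, IL1B and CSF2 lie below zero at each time and closest to it at 48 h, while IL11, CCL26 and CXCL11 lie above zero at each time.

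The ELR chemokines draw neutrophils through CXCR1 and CXCR2. Their genes lie within 1 cluster on chromosome 4 (hg38), from CXCL8 at 73740541 to CXCL2 at 74099196. CXCL1 was at 32.9 and 34.2 CPM in untreated GFP cells, 18.6 and 19.3 at 6 h and 14 and 13.5 at 48 h, so that each time point was below the one before it without overlap (log2 fold change -1.29 ± 0.10, edgeR adjusted p 1.5e-11 at 48 h; errors of log2 values are SE). In ZMYND8 cells it was at 1.84 and 1.84 CPM untreated, 1.58 and 0.998 at 6 h and 2.03 and 1.45 at 48 h. It was thus lower than in GFP cells at each time, by a log2 difference of -4.18 ± 0.14 untreated (edgeR adjusted p 3.5e-19), while the 48 h values overlapped the untreated ones.

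CXCL8, the gene of IL-8, was at 55.4 and 54.4 CPM in untreated GFP cells, 60.1 and 64.2 at 6 h and 33.5 and 34.7 at 48 h (log2 fold change -0.69 ± 0.09, edgeR adjusted p 9.4e-08). In ZMYND8 cells it started at 1.79 and 3.41 CPM, and 5.18 and 4.20 at 6 h and 4.84 and 5.53 at 48 h were higher without overlap (log2 fold change 0.94 ± 0.19, adjusted p 8.5e-05 at 48 h). The drug effects thus had opposite signs in the lines, with an interaction of 1.63 ± 0.20 (edgeR adjusted p 5.2e-07; 2.22 without the second untreated ZMYND8 library), and the level in ZMYND8 cells at 48 h was still below that of GFP cells. CXCL2 fell from 5.93 and 7.75 to 3.02 and 3.87 CPM in GFP cells at 48 h and gave 2.85 and 3.15 untreated and 2.72 and 3.49 at 48 h in ZMYND8 cells. CXCL3 went from 3.50 and 3.48 to 2.13 and 2.19 CPM in GFP cells, a call at an adjusted p of 0.048 that was lost without any of the 4 libraries in turn (adjusted p 0.11 to 0.13), with other scaling factors and with DESeq2 (0.061 to 0.28).

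CXCL10 and CXCL11 encode ligands of CXCR3 on activated T cells and are adjacent on chromosome 4, from 76021118 to 76041415. CXCL11, whose promoter with 1 kappa B and 1 AP-1 motif is printed above, was at 0.253 and 0.791 CPM in untreated GFP cells, 1.31 and 1.28 at 6 h and 5.55 and 5.01 at 48 h (log2 fold change 3.33 ± 0.25, edgeR adjusted p 6.8e-12). The log2 fold change was 2.71 without the first and 4.34 without the second untreated library. Its levels in ZMYND8 cells were 2.90 and 2.84 CPM untreated, 3.45 and 3.62 at 6 h and 36.7 and 37.8 at 48 h (log2 fold change 3.70 ± 0.14, edgeR adjusted p 4.2e-18). Its untreated and 48 h libraries did not overlap in either line, and a difference between the 48 h effects in the lines was not detected (interaction 0.36 ± 0.38, adjusted p 0.54). CXCL10 was near the limit of detection without drug, at 0.507 and 0.158 CPM in GFP and 0.391 and 0.0875 in ZMYND8 cells, and reached 0.621 and 0.715 CPM in GFP and 3.01 and 2.30 CPM in ZMYND8 cells at 48 h. Its rise passed the test in ZMYND8 cells (log2 fold change 3.54 ± 0.50, edgeR adjusted p 7.1e-07) and not in GFP cells (adjusted p 0.12). The log2 fold change of CXCL10 in ZMYND8 cells was 4.81 without the first and 2.73 without the second untreated library. The interaction of CXCL10 (2.55 ± 0.81, adjusted p 0.019) was lost when either the first untreated GFP, the second untreated ZMYND8 or the first 48 h ZMYND8 library was left out (adjusted p 0.41, 0.13 and 0.065).

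CXCL16 and CX3CL1 are chemokines made as membrane-bound forms. CXCL16 rose from 2.43 and 3.48 to 8.97 and 11.6 CPM in GFP cells and from 1.45 and 1.58 to 7.36 and 6.25 CPM in ZMYND8 cells at 48 h (log2 fold change 1.80 ± 0.19, edgeR adjusted p 3.6e-09 and log2 fold change 2.16 ± 0.22, edgeR adjusted p 1.6e-09). CX3CL1 followed another course. It was at 23.4 and 25.6 CPM in untreated GFP cells, fell to 11.2 and 9.31 at 6 h and was back at 23.7 and 22.4 at 48 h. In ZMYND8 cells it went from 2.12 and 1.62 CPM to 0.641 and 0.578 at 6 h and to 8.09 and 7.95 at 48 h, above the untreated level (log2 fold change 2.12 ± 0.17, edgeR adjusted p 1.4e-11). The interaction of CX3CL1 at 48 h was 2.21 ± 0.20 (edgeR adjusted p 1.6e-09).

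CCL26 (eotaxin-3), a CC chemokine, rose from 1.32 and 1.11 CPM to 8.03 and 7.36 in GFP cells and from 6.31 and 8.01 to 25.4 and 24.7 in ZMYND8 cells at 48 h, without overlap in either line. The change was larger in GFP cells (log2 fold change 2.66 against 1.79, interaction adjusted p 0.011), a difference that was lost without the second untreated library of either line (adjusted p 0.09 and 0.08). CCL2, which attracts monocytes, was at 1.77 and 1.69 CPM in untreated GFP cells and at 0.266 and 0.168 after 48 h (log2 fold change -2.97 ± 0.50, edgeR adjusted p 1.3e-05). It had 0 counts in both untreated and both 6 h libraries of ZMYND8 cells, at least 11.8-fold lower than in GFP cells without drug and at least 6.96-fold lower at 6 h, set against 3 counts per library. At 48 h CCL2 gave 10 counts in GFP and 2 in ZMYND8 cells, a ratio of 5.19 (95% exact interval 1.11 to 48.8, for counting error only). CCL5 went from 3 to 50 counts over both libraries of GFP cells at 48 h, a ratio of 13.9 (95% exact interval 4.5 to 69.8), and its edgeR call was lost without either untreated GFP library (adjusted p 0.087 and 0.055). In ZMYND8 cells CCL5 was at 0.168 and 0.744 CPM untreated and 13.7 and 1.06 at 48 h, so the libraries disagreed, and its call (log2 fold change 3.92 ± 0.73, edgeR adjusted p 3.9e-05) was lost without the first 48 h library (log2 1.13, adjusted p 0.17). That library also made the call of CCL5 between the lines at 48 h, where the groups overlapped (log2 2.77, and -0.023 without it).

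**Figure D3:**
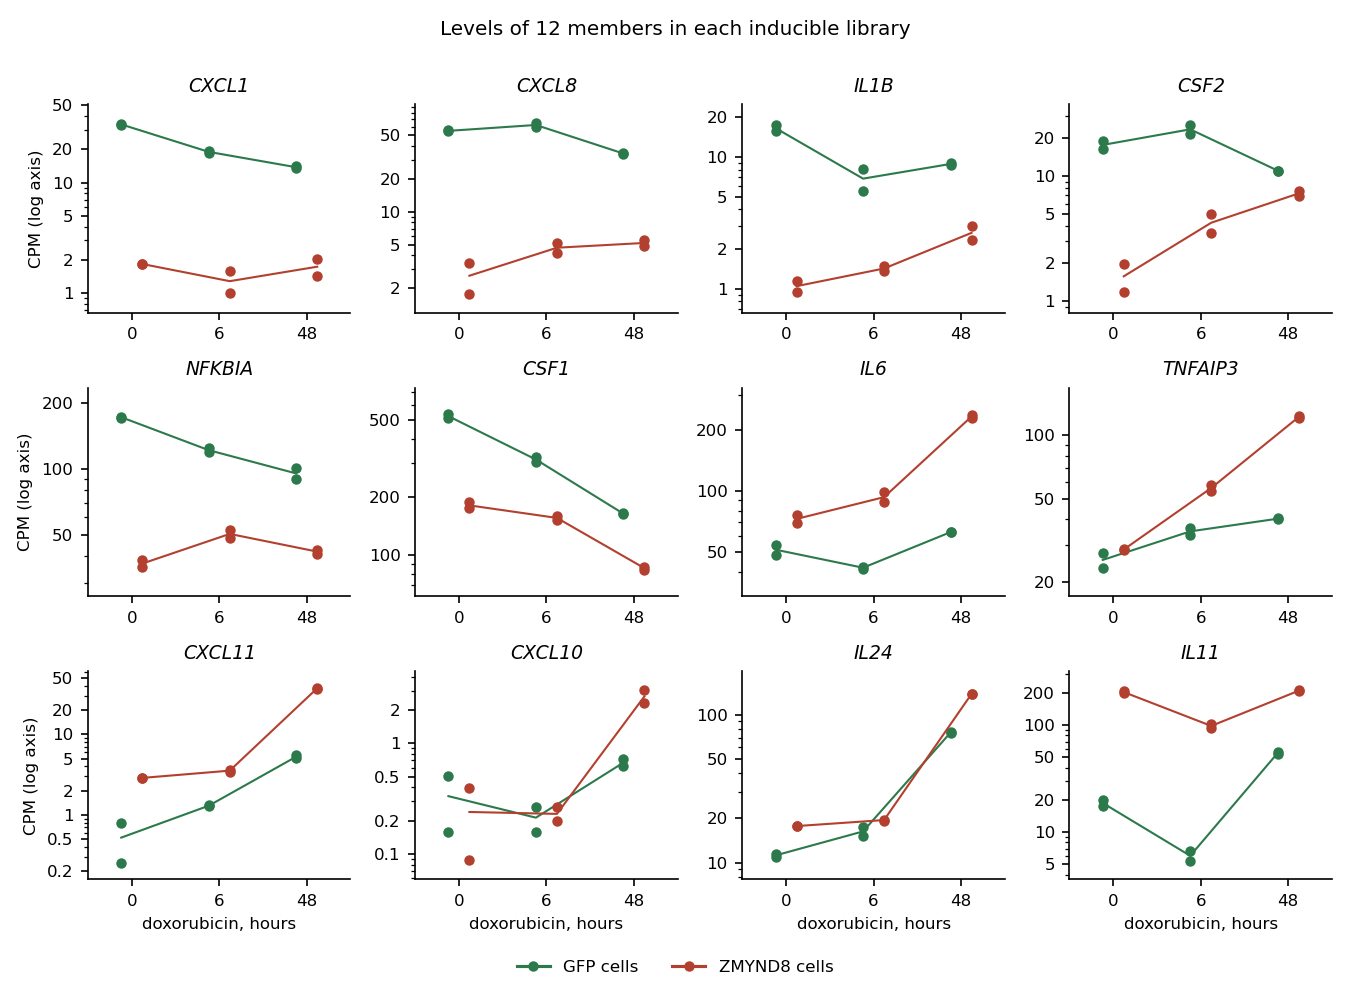
CPM (log axis) of 12 members in each inducible library (points) without doxorubicin and after 6 and 48 h (times spaced evenly), with lines through the mean of 2 libraries. CXCL1, CXCL8, IL1B, CSF2, NFKBIA and CSF1 are lower in ZMYND8 cells at each time. IL6 and TNFAIP3 move further above GFP cells by 48 h, while CXCL11 is higher in ZMYND8 cells at each time, also without drug.

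Interleukin 1 alpha and beta start inflammatory signalling through the interleukin 1 receptor. IL1B was at 15.8 and 17.4 CPM in untreated GFP cells, 8.14 and 5.57 at 6 h and 9.06 and 8.66 at 48 h (log2 fold change -0.90 ± 0.15, edgeR adjusted p 6.3e-06). The ZMYND8 cells held 0.949 and 1.14 CPM untreated, 1.48 and 1.37 at 6 h and 2.97 and 2.34 at 48 h, a rise at 48 h (log2 fold change 1.33 ± 0.26, edgeR adjusted p 6.8e-05). IL1B therefore moved in opposite directions in the lines, with an interaction of 2.23 ± 0.30 (edgeR adjusted p 1.3e-06). IL1A fell from 10.04 and 9.07 to 4.62 and 5.26 CPM in GFP cells at 48 h and gave 0.726 and 1.09 untreated and 1.30 and 1.32 at 48 h in ZMYND8 cells, where the change did not pass the test (adjusted p 0.17). IL18 went from 26.7 and 30.2 CPM to 15.3 and 17.8 at 6 h and 18.9 and 18.1 at 48 h in GFP cells. It was at 36.6 and 31.1 CPM untreated, 26.4 and 25 at 6 h and 31.1 and 30.1 at 48 h in ZMYND8 cells, and the difference between the untreated lines (log2 0.25 ± 0.09, adjusted p 0.017) was lost without the first untreated library of either line (adjusted p 0.22 and 0.24).

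The interleukin 6 family signals through the shared receptor chain IL6ST. IL6, with 1 kappa B motif in the printed promoter, was at 54.2 and 48.4 CPM in untreated GFP cells, 42.3 and 41.3 at 6 h and 62.5 and 62.8 at 48 h. In ZMYND8 cells it was at 69.7 and 75.9 CPM, 98.6 and 88.1 at 6 h and 238 and 229.8 at 48 h, so that every library at 48 h was above all of the others (log2 fold change 1.68 ± 0.05, edgeR adjusted p 7.8e-20). The rise in GFP cells at 48 h was much smaller (log2 0.29 ± 0.06), and the interaction was 1.39 ± 0.08 (edgeR adjusted p 9.9e-13). At 6 h IL6 fell in GFP cells (log2 -0.30) and rose in ZMYND8 cells (log2 0.36).

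IL11 was at 20.02 and 17.4 CPM in untreated GFP cells and at 208 and 199 in untreated ZMYND8 cells (log2 fold change 3.44 ± 0.06, edgeR adjusted p 5.6e-25). After 6 h of doxorubicin it fell to 5.41 and 6.58 CPM in GFP and 103 and 93.9 in ZMYND8 cells. By 48 h it had risen above its starting level in GFP cells, to 54.1 and 55.7 CPM (log2 fold change 1.55 ± 0.07, edgeR adjusted p 1.6e-16), and was back at 213 and 206 in ZMYND8 cells, where the libraries overlapped the untreated ones. IL11 and CCL26 were the members whose 48 h effect was called more negative in ZMYND8 cells (IL11 interaction -1.51 ± 0.09, adjusted p 5.7e-13). LIF fell in both lines at 48 h, from 72.5 and 70.1 to 19.7 and 21.5 CPM in GFP and from 76.3 and 75.8 to 28.3 and 27.3 in ZMYND8 cells (log2 fold change -1.79 ± 0.06, edgeR adjusted p 5.1e-19 and log2 fold change -1.45 ± 0.06, edgeR adjusted p 1.6e-17), with no change called at 6 h in ZMYND8 cells.

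The colony stimulating factors support macrophages and granulocytes. CSF1 was the member with the highest level per kilobase in untreated GFP cells, at 100.5 ± 3.39 CPM per kb (SD, n = 2), followed by NFKBIA at 72.3 ± 0.715 and TNFSF10 at 35.1 ± 0.376. It fell from 514 and 539 CPM to 322 and 305 at 6 h and 163 and 166 at 48 h in GFP cells, and from 175 and 188 to 153 and 159.5 at 6 h and 87.1 and 84.2 at 48 h in ZMYND8 cells (log2 fold change -1.68 ± 0.04, edgeR adjusted p 1.2e-21 and log2 fold change -1.08 ± 0.05, edgeR adjusted p 6.5e-17 at 48 h). CSF2, which encodes GM-CSF, was at 16.5 and 19 CPM in untreated GFP cells, 25.7 and 21.6 at 6 h and 11 and 11.1 at 48 h. In ZMYND8 cells it rose from 1.17 and 1.97 CPM to 4.98 and 3.47 at 6 h and 7.52 and 6.98 at 48 h (log2 fold change 2.16 ± 0.20, edgeR adjusted p 5.7e-10). CSF2 had the largest interaction at 48 h among members that were not at the floor of counts in any group, 2.85 ± 0.24 (edgeR adjusted p 9.1e-10). CSF3 (G-CSF) dropped from 12.5 and 12.2 to 1.99 and 2.57 CPM at 6 h in GFP cells (log2 fold change -2.43 ± 0.20, edgeR adjusted p 5.8e-11) and partly returned to 6.39 and 5.85 at 48 h. In ZMYND8 cells CSF3 was at 1.51 and 1.79 CPM untreated, 0.789 and 0.368 at 6 h and 2.20 and 2.08 at 48 h.

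The order of members by level per kilobase differed between the lines. In untreated ZMYND8 cells IL11 came first at 76.0 ± 2.60 CPM per kb, and IL6 (35.2 ± 2.10) and CSF1 (34.6 ± 1.78) did not differ beyond their SD. After 48 h of doxorubicin NFKBIA (40.1 ± 3.38) and IL24 (38.2 ± 0.411) led in GFP cells within their SD of each other, while IL6 (113 ± 2.73), IL11 (78.2 ± 1.64) and IL24 (69.8 ± 0.342) led in ZMYND8 cells.

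IL24, an interleukin 10 family cytokine, rose in both lines. It was at 10.9 and 11.4 CPM in untreated GFP cells, 15.1 and 17.4 at 6 h and 75.1 and 76.3 at 48 h (log2 fold change 2.76 ± 0.07, edgeR adjusted p 6.1e-22). Levels in ZMYND8 cells were 17.6 and 17.7 CPM untreated, 19.5 and 19.2 at 6 h and 138 and 139 at 48 h (log2 fold change 2.97 ± 0.06, edgeR adjusted p 1.4e-23), and the interaction at 48 h did not pass the test (log2 0.21 ± 0.10, adjusted p 0.13). The exons of FCMR on the opposite strand cover 41.6% of the exonic bases of IL24. IL32 was at 69.5 and 64.8 CPM in untreated GFP and 9.27 and 10.3 in untreated ZMYND8 cells (log2 fold change -2.77 ± 0.08, edgeR adjusted p 8.5e-21), and at 48 h it was at 76.2 and 75.3 in GFP and 21.2 and 20.9 in ZMYND8 cells. The rise of IL32 was called in both (log2 fold change 0.17 ± 0.06, edgeR adjusted p 0.013, and log2 fold change 1.10 ± 0.09, edgeR adjusted p 3.8e-11), in GFP cells not without the second untreated or either 48 h library (adjusted p up to 0.20). IL15, which sustains T and NK cells, fell from 9.43 and 6.91 to 4.83 and 4.5 CPM at 6 h in GFP cells and was at 4.84 and 4.5 at 48 h. In ZMYND8 cells IL15 was at 7.71 and 7.44 untreated, 7.20 and 7.30 at 6 h and 7.07 and 7.36 at 48 h, with no change called.

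TNFSF10 encodes the death ligand TRAIL and TNFSF15 a ligand of TNFRSF25. TNFSF10 fell at 6 h in both lines, from 119.8 and 122 to 41.4 and 42.5 CPM in GFP and from 41.6 and 43.4 to 16.8 and 14.3 in ZMYND8 cells, by log2 fold changes of -1.52 ± 0.06 and -1.45 ± 0.07 (interaction 0.07 ± 0.09, adjusted p 0.7). At 48 h it was at 52.7 and 52.7 CPM in GFP and 31.8 and 33.5 in ZMYND8 cells, still below the untreated libraries in each line. TNFSF15 rose from 22.2 and 20.9 to 46.2 and 50.2 CPM in GFP and from 3.57 and 3.90 to 10.5 and 10.8 in ZMYND8 cells at 48 h, and stayed lower in ZMYND8 cells (log2 fold change -2.18 ± 0.09, edgeR adjusted p 1.1e-17).

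The feedback inhibitors moved in opposite directions in GFP cells, whereas both were called higher with doxorubicin in ZMYND8 cells. TNFAIP3, with 2 kappa B motifs in the printed promoter, was at 23.4 and 27.7 CPM in untreated GFP cells, 33.6 and 36.2 at 6 h and 40.3 and 39.9 at 48 h (log2 fold change 0.65 ± 0.07, edgeR adjusted p 6e-09). The corresponding ZMYND8 levels were 28.4 and 28.9 CPM untreated, 54.6 and 57.7 at 6 h and 123 and 120.3 at 48 h (log2 fold change 2.09 ± 0.06, edgeR adjusted p 1.8e-20), so that the lines overlapped at no matched time and were closest when untreated (adjusted p 0.06). Its interaction was 0.52 ± 0.10 at 6 h and 1.44 ± 0.10 at 48 h (edgeR adjusted p 7e-04 and 8.7e-12). NFKBIA fell in GFP cells, from 170.4 and 173 CPM to 124 and 119 at 6 h and 101 and 89.4 at 48 h (log2 fold change -0.85 ± 0.05, edgeR adjusted p 6.2e-14). It was at 38.3 and 35.5 CPM untreated, 52.6 and 48.2 at 6 h and 42.8 and 41 at 48 h in ZMYND8 cells, lower than in GFP cells at each time and higher than untreated at 6 h (log2 0.45 ± 0.07, adjusted p 2.6e-06). Its rise at 48 h was small (log2 0.19 ± 0.07, edgeR adjusted p 0.017) and was not called without the second untreated or the first 48 h library (adjusted p 0.24 and 0.12) or without the low-count filter (0.061). The interaction of NFKBIA at 48 h was 1.04 ± 0.08 (edgeR adjusted p 3.4e-10).

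Further genes of the pathway were counted from lists defined by function. Of all genes, 32.4% were higher and 31.8% lower at 48 h in GFP cells, and 31.6% and 30.8% in ZMYND8 cells. Named are those with the smallest adjusted p of a list. Of 5 NF-kB subunits, 3 were higher and 1 lower at 48 h in GFP cells, and 3 were higher and 0 lower in ZMYND8 cells. NFKB2 rose from 126 to 211 CPM on average in GFP cells (log2 0.75) and from 98.7 to 186 in ZMYND8 cells (log2 0.91), and RELB rose from 39.4 to 60.5 and from 20.2 to 43.3 CPM. Of 10 other inhibitors and feedback genes, 4 were higher and 5 lower at 48 h in GFP cells, and 8 were higher and 1 lower in ZMYND8 cells. BIRC3, which encodes cIAP2, rose from 44.1 to 95.5 CPM in ZMYND8 cells (log2 1.11), and NFKBIB rose in both lines (log2 1.32 and 1.06). In the interaction at 48 h, 7 of these 10 were higher and 2 lower, beside 12.7% and 15.8% of all genes. The smallest adjusted p was that of TNIP1 (log2 0.96), BIRC3 (1.41) and ZC3H12A (1.34).

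Of 14 kinases and adaptors, 6 were higher and 4 lower at 48 h in GFP cells, beside 32.4% and 31.8% of all genes. In ZMYND8 cells 3 were higher and 8 lower, beside 31.6% and 30.8%. MYD88, the adaptor of interleukin 1 receptors, and CHUK, an IkB kinase subunit, were higher in both (MYD88 log2 0.60 and 0.69, CHUK 0.79 and 0.47). Of 34 receptors for the members, 25 were tested in the inducible system. At 48 h, 7 of them were higher and 11 lower in GFP cells and 10 higher and 8 lower in ZMYND8 cells, beside the same shares. TNFRSF1A, a receptor of TNF, fell in both (log2 -0.88 and -1.12), while IL7R rose in both (log2 1.96 and 0.95). TNFRSF1B, also a receptor of TNF and named for that reason, was called higher in both. Without drug 12 receptors were lower and 6 higher in ZMYND8 cells, beside 29.5% and 28.7% of all genes. The smallest adjusted p was that of CXCR4, which was at 45.2 CPM on average in GFP and 0.711 in ZMYND8 cells (log2 -5.93). In the transient system 2.98% of all genes were higher and 2.15% lower with doxorubicin against control. In the libraries labelled ZMYND8 plus doxorubicin 3.85% were higher and 2.97% lower. No NF-kB subunit or kinase was called in either comparison. Of the 10 feedback genes 2 were higher in each, TRAF1 in both (log2 1.48 and 1.62), CYLD with doxorubicin and NFKBIB in the labelled libraries. Of 15 receptors tested, IL22RA1 was higher in both and IL7R in the labelled libraries, and 0 were lower. For the inducible comparisons, the shares of all genes called are those given above.

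In the transient system fewer genes passed the test, and the members that did were higher with doxorubicin except CSF1. Doxorubicin against control gave 3 of 23 members higher, beside 2.98% of all genes, and 1 lower, beside 2.15%. The libraries labelled ZMYND8 plus doxorubicin gave 5 members higher and 1 lower against the same controls, beside 3.85% and 2.97% of all genes. Between the treated groups, 0 members were higher and 0 lower by edgeR, beside 0% and 0% of all genes, and 0 had an unadjusted p of at most 0.05. DESeq2 also called 0 members in either direction there.

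CXCL11 was at 0.382 and 0.696 CPM in control, 3.13 and 12.5 with drug and 10.8 and 15.3 in the labelled ZMYND8 group (log2 fold change 3.91 ± 0.74, edgeR adjusted p 0.016 with doxorubicin against control). IL11 was at 15.1 and 7.66 CPM in control, 47.9 and 40.7 with drug and 98.8 and 41 in the labelled group (log2 fold change 1.96 ± 0.41, edgeR adjusted p 0.025), with the treated libraries above both controls. TNFAIP3 was at 9.35 and 8.70 CPM in control, 18.1 and 24 with drug and 28.1 and 21.7 in the labelled group (log2 fold change 1.24 ± 0.27, edgeR adjusted p 0.029). CSF1 was at 721 and 658 CPM in control, 298 and 284 with drug and 359 and 288 in the labelled group, a fall in both (log2 fold change -1.25 ± 0.21, edgeR adjusted p 0.01). Against control the libraries labelled ZMYND8 plus doxorubicin gave log2 fold changes of 4.55 for CXCL11, 2.63 for IL11, 1.46 for TNFAIP3 and -1.09 for CSF1, all called. The value of IL11 was 1.85 without the first labelled library.

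In the group labelled ZMYND8 plus doxorubicin, CSF2 and IL6 were called as well. CSF2 was at 3.82 and 1.22 CPM in control, 7.64 and 7.47 with doxorubicin and 22.8 and 6.73 in the labelled group (log2 fold change 2.57 ± 0.61, edgeR adjusted p 0.031 against control). IL6 was at 14.1 and 6.96 CPM in control, 9.72 and 40.6 with drug and 46.7 and 39.9 in the labelled group (log2 fold change 2.04 ± 0.54, edgeR adjusted p 0.046), and the doxorubicin libraries lay far apart, with the first between the controls. IL24, which rose in both inducible lines, was at 13.5 and 2.61 CPM in control and 3.30 and 4.84 with doxorubicin, with overlapping groups and no call (adjusted p 0.38). CXCL10 was at 0.191 and 0.348 CPM in control, 0.174 and 2.71 with drug and 2.71 and 1.15 in the labelled group and was not called.

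Without the close libraries, which leaves 1 library in each treated group, assumed to vary like the 2 controls, IL11 was still called with doxorubicin (log2 2.09, adjusted p 1.8e-05), while CXCL11 (log2 2.48), TNFAIP3 (1.00) and CSF1 (-1.21) were not (adjusted p 0.10, 0.31 and 0.11). In the labelled group CXCL11, IL11, CSF2, IL6 and TNFAIP3 were still called against control and CSF1 was not (log2 -0.96, adjusted p 0.21). Between the treated groups, which is then a comparison of the first library of each, IL6 differed by a log2 value of 2.24. Leaving out the second doxorubicin library alone ended every member call of doxorubicin against control. That library held 24713822 counts, the most of any transient library, and calls over all genes also fell in both directions without it. TNFAIP3 was also lost without either control library, CXCL11 without the first and IL11 without the second. In the labelled group CSF2 and IL6 were lost without the second control, CSF2, IL6, TNFAIP3 and CSF1 without the first labelled library, and IL6 and CSF1 without the second. Calls over all genes fell in each of these fits as well.

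**Figure D4:**
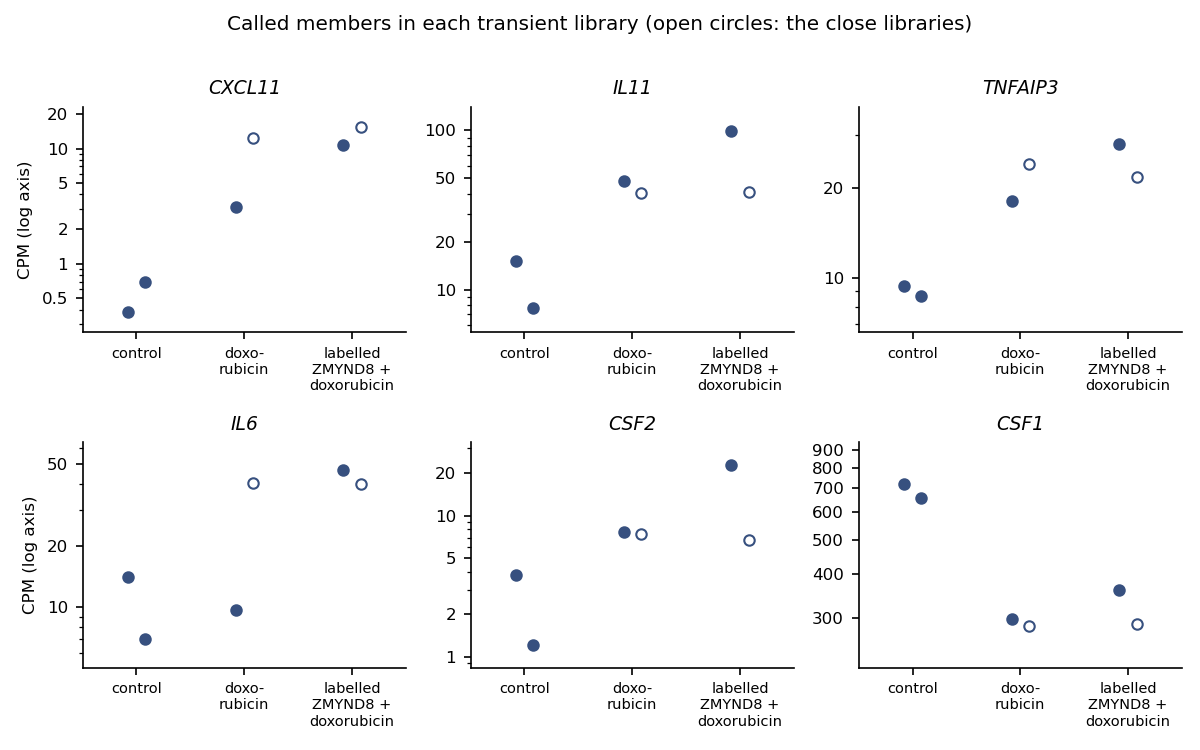
CPM (log axis) of the 6 members called in the transient system in each library, with open circles for the second library of each treated group, which are the close pair. CXCL11, IL11 and TNFAIP3 are above both controls in all treated libraries and CSF1 is below them, while IL6 of the first doxorubicin library lies between the controls.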

How the data were processed

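Poly(A) RNA-seq of 18 MDA-MB-231 libraries was used as 2 tables of raw read counts per gene that the authors deposited. Per the file headers, fragments were counted with featureCounts 1.6.4 on GENCODE 31, with the reverse-stranded setting. The submitters' processing notes name Trim Galore, HISAT2, DESeq2 and hg38, whereas the study's methods name TopHat as aligner. Counts at paralogs or overlapping genes depend on these choices.

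Each table was fitted separately in edgeR 4.0.16 (R 4.3.3) with TMM factors, filterByExpr and a quasi-likelihood test with 1 mean per group, and Benjamini-Hochberg adjustment covered 18801 genes in the inducible and 15697 in the transient system. SE was taken from the fold change and its F statistic. Levels are CPM, or CPM per kb of exons. Groups were taken from the sample titles. Nothing states that the 2 libraries of a group came from separate cultures, so p-values measure the spread between these libraries, which may be technical. Depth was 18300628 to 23724398 counts in the inducible and 5729294 to 24713822 in the transient libraries, and intervals and floors cover counting error only. The steps were tested on simulated data. Promoter windows came from RefSeq, and exon overlaps from GENCODE 44.

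The members and gene lists were chosen with earlier results of these data known. Not all listed markers are reported here. All members are given by role, and of each pathway list mainly those with the smallest adjusted p. Alternatives were other scaling factors, other filters, DESeq2 1.42.0, a replicate block, the study's criterion (unadjusted p of at most 0.05 and a log2 change of at least 1.5 in the inducible or 1 in the transient system), leaving out each library and, added after the counts were compared, leaving out both close libraries.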

Additional observations from a re-analysis of the deposited data

Results flagged for a closer look

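The effect of doxorubicin differed between ZMYND8 and GFP cells for the members below, by edgeR's test of the interaction at an adjusted p of at most 0.05. Values are differences of log2 fold changes, ZMYND8 cells minus GFP cells, over 8 libraries each. At 48 h the difference was 2.85 for CSF2, 2.55 for CXCL10, 2.23 for IL1B, 2.21 for CX3CL1, 1.63 for CXCL8, 1.45 for IL1A, 1.44 for TNFAIP3, 1.39 for IL6, 1.38 for CSF3, 1.21 for CXCL1, 1.04 for NFKBIA, 1.03 for CXCL2, 0.92 for IL32, 0.81 for TNFSF10, 0.74 for IL15, 0.60 for CSF1, 0.48 for IL18 and 0.34 for LIF. It was -0.86 for CCL26 and -1.51 for IL11. The value of 5.96 for CCL2 rests on 0 counts in untreated ZMYND8 cells and 1 count in each ZMYND8 library at 48 h, so its size depends on the prior count, and the call was lost without 7 of 8 libraries in turn.

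At 6 h the difference was 1.71 for IL1B, 0.97 for CSF2, 0.95 for NFKBIA, 0.75 for IL15, 0.65 for IL6, 0.59 for IL11, 0.53 for CSF1, 0.52 for TNFAIP3, 0.39 for IL18 and 0.38 for LIF, and -0.40 for IL24. IL6, TNFAIP3, NFKBIA, CSF1, CSF2, IL1B, IL15, IL18 and LIF had a more positive effect in ZMYND8 cells at both times, and IL11 changed sign between them, from 0.59 to -1.51. Leaving out at least 1 library ended the calls of CSF2, IL11, IL15, IL18 and IL24 at 6 h and, beside CCL2, those of CCL26, CXCL10, CXCL2 and IL15 at 48 h.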

How the results depend on the processing

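All calls are edgeR's unless named. The counts of members kept within 1.5 times their value with other scaling factors (RLE or total counts). DESeq2 called 0 members lower in the 6 h interaction, against 1. Without a filter 7 members, not 3, were higher with doxorubicin in the transient system, beside 839 of 37454 genes against 468 of 15697, and with at least 10 counts in every library 3, not 5, were higher in the labelled group, where 18 members were tested.

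By the study's criterion, GFP cells had 0 members higher and 3 lower at 6 h (266 and 619 of 18801 genes) and 6 higher and 3 lower at 48 h (1911 and 580 genes). ZMYND8 cells had 0 higher and 2 lower at 6 h (127 and 386 genes) and 11 higher and 0 lower at 48 h (1904 and 432 genes). Against GFP cells, ZMYND8 cells had 3 members higher and 14 lower without drug (805 and 1345 genes), 2 higher and 11 lower at 6 h (754 and 1240 genes) and 7 higher and 10 lower at 48 h (700 and 1075 genes). The interaction had 1 higher and 0 lower at 6 h (170 and 207 genes) and 6 higher and 1 lower at 48 h (408 and 287 genes). Transient doxorubicin had 7 higher and 1 lower (841 and 525 of 15697 genes). The labelled group had 6 higher and 1 lower against control (895 and 649 genes), and 0 higher and 0 lower against doxorubicin alone (10 and 15 genes). A larger fold is required by this criterion in the inducible system.

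Replicate numbers were not taken to pair the libraries, since a group has 2 numbers and no label ties a number to a shared culture or day. Replicate differences of 2 groups correlated at -0.215 to 0.0837 in the inducible and 0.199 to 0.462 in the transient system. With the replicate block 5 members, not 3, were higher with transient doxorubicin, while the genes called higher went from 468 to 1184 of 15697, and the calls of CCL2 between the lines at 48 h and of IL18 in the 6 h interaction were lost.

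Leaving out 1 library at a time gave 2 to 5 members higher in GFP cells at 6 h, 4 to 7 higher in ZMYND8 cells at 6 h, 0 to 2 lower in the 6 h and 1 to 2 lower in the 48 h interaction. The same held in both directions for transient doxorubicin and for the labelled group against control. There the number of all genes called also left that range in both directions. The difference of CCL5 between the lines at 48 h turned from 2.77 to -0.023 (log2, adjusted p 0.98) without the first ZMYND8 library at 48 h and was 3.66 without the second. Leaving out both close libraries leaves 1 library in each treated group. Calls of members and of all genes both changed, with the log2 values of members given above. The cause of these changes was not tested.

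Total-count scaling changed the split of all genes, higher and lower, from 6091 and 5986 to 8503 and 3987 in GFP cells at 48 h. In ZMYND8 cells it went from 5933 and 5785 to 8059 and 3981 at 48 h and from 4102 and 3572 to 3003 and 4568 at 6 h. The 6 h interaction went from 1478 and 1037 to 822 and 1730. The split went from 468 and 337 to 676 and 191 with transient doxorubicin and from 605 and 466 to 911 and 324 in the labelled group.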
